A study of Mus musculus with 3 samples.

Results

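Alternative promoters were examined in 2078 of the 20720 autosomal protein-coding genes (10.03%). A gene was taken when its protein-coding transcripts started at sites 5 kb or more apart and none of the sites scored lay within 1 kb of a transcription start site (TSS) of another gene, with TSSs from the GENCODE M21 basic annotation on mm10. TSSs of a gene closer together than 5 kb were joined into 1 promoter, which split 2026 of the genes into 4468 promoters. Of these genes, 1727 had 2 promoters, 215 had 3, 57 had 4, 22 had 5, 4 had 6 and 1 had 7. The other 52 genes had TSSs that chained into 1 promoter, which was used in 21 of them and closed in 24. In 155 of the 2078 genes a further TSS was left out because another gene started nearby.

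The data are DNase-seq peaks, short stretches where the nuclease DNase I cuts chromatin more often than elsewhere, from primary monocytes of virgin female B6CASTF1/J mice aged 2 months. B6CASTF1/J is an F1 hybrid of the C57BL/6J and CAST/EiJ strains. The 3 libraries, replicates 1, 2 and 4, form 1 group with neither a treatment nor a control group, and they carry the same donor identifier. The labels do not say that they came from separate animals, so the spread between them may be technical.

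Many mammalian genes can be transcribed from more than 1 promoter. The start chosen sets the first exon, the 5′ untranslated region and sometimes the first amino acids of the protein, and separate promoters can answer to separate transcription factors. Promoters of widely expressed genes often lie in CpG islands, where CG dinucleotides are dense, whereas many tissue-specific promoters are poor in CpG. An active promoter in a monocyte is usually depleted of nucleosomes and therefore open to DNase I, although openness alone does not measure transcription.

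A promoter was scored open in a library when a deposited peak overlapped the 1 kb on either side of any of its TSSs. It is called used when open in all 3 libraries and closed when open in none. Its height is the authors' signal for the tallest such peak, in the units deposited. Heights are set side by side within a library, because the scale between libraries is not stated.

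The sequences of 4 genes show the contrast that runs through the results. Each is the reference sequence of the 150 bases just upstream of the first TSS of a promoter, read 5′ to 3′ on the strand of the gene, on mm10, with CG dinucleotides in capitals. None overlaps an annotated exon. Mafk, on the + strand, uses its upstream promoter (chr5:139791363-139791512), which has 21 CG dinucleotides in this stretch, and not its downstream promoter (chr5:139797364-139797513), which has 2.
Mafk upstream, used: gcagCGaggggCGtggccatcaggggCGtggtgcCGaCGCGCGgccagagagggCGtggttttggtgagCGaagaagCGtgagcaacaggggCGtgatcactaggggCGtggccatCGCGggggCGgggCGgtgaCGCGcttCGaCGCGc
Mafk downstream, closed: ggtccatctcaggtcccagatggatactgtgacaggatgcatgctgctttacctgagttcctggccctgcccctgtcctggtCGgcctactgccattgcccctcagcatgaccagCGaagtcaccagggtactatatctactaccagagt
Tollip, on the - strand, does the reverse, with 14 CG dinucleotides at the used downstream promoter (chr7:141902488-141902637) and 0 at the closed upstream promoter (chr7:141918508-141918657).
Tollip downstream, used: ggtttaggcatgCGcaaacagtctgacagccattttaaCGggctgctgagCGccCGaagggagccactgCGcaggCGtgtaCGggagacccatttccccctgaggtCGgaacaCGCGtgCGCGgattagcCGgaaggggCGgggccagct
Tollip upstream, closed: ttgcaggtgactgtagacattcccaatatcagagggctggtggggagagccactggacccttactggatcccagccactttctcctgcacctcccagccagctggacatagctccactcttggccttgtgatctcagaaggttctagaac
Nadk, on the + strand, is shown because its used upstream promoter (chr4:155562228-155562377) is also poor in CpG, with 4 CG dinucleotides against 0 at the closed downstream promoter (chr4:155582345-155582494).
Nadk upstream, used: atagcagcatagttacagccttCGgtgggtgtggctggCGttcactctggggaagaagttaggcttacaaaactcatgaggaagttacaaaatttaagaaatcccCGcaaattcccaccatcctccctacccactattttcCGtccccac
Nadk downstream, closed: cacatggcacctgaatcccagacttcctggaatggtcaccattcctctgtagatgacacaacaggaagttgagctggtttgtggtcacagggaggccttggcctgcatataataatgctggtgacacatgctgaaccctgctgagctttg
Runx1, on the - strand, is shown because both of its promoters are used, the upstream promoter (chr16:92826150-92826299) with 0 CG dinucleotides and the downstream promoter (chr16:92697329-92697478) with 12.
Runx1 upstream, used: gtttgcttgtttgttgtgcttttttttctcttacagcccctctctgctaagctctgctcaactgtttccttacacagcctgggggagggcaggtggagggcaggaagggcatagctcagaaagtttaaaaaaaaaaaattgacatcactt
Runx1 downstream, used: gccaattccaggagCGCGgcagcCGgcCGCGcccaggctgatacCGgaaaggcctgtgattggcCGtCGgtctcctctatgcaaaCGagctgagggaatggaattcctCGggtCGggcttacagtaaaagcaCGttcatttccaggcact

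The libraries had 54046, 42657 and 48980 peaks in the longer peak lists, with a median width of 200 bp, and their read depth is unknown. Of 15 monocyte genes with a scored promoter 9 had a used promoter, among them Csf1r, Cx3cr1, Itgam, Lyz2 and Spi1, while Ccr2 and Chil3 had no peak in any library. Used promoters were also found at 1 of 6 T cell genes (Cd5), 1 of 6 B cell genes (Ebf1) and 1 of 6 neutrophil genes (S100a8). None was found at 4 natural killer cell, 4 erythroid or 4 hepatocyte genes, and Cd3e, Ncr1 and Elane had no peak in any library. The part of other cell types in the results was not tested.

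Most multi-promoter genes that were open at all were open at 1 promoter. Of the 4468 promoters 1095 were used (24.5%). The share was 38.6% over all 19525 scored autosomal protein-coding promoters and 42.8% over the 15005 promoters of the other genes. Genes with every TSS within 1 kb of a TSS of another gene had no scored promoter, so they are in none of these shares. By gene, 941 of the 2026 multi-promoter genes (46.4%) had a used promoter. Of these 941 genes, 84.4% used exactly 1 promoter and 15.6% used 2 or more. Exactly 1 promoter was used in 794 genes, and in 695 of them every other promoter was closed in all 3 libraries. In 140 genes 2 promoters were used and in 7 genes 3 were used. No promoter was used in 1085 genes (53.6%), and in 911 every promoter was closed.

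The promoter farthest upstream was open most often. It had a peak in 41.8, 39.2 and 39.3% of the 2026 genes in replicates 1, 2 and 4 (mean 40.1 ± 1.47%, SD, n = 3). The promoter farthest downstream had a peak in 18.6, 16.5 and 17.5% (17.6 ± 1.04%), and the 416 internal promoters in 18.5, 16.1 and 16.3% (17.0 ± 1.32%). The ranges of the upstream and downstream shares did not overlap. Upstream exceeded downstream by 22.6 ± 0.696 percentage points (SD over libraries, n = 3), with an exact two-sided permutation p = 0.25, the smallest that 3 paired libraries allow. Among promoters with a single TSS, whose windows all have the same width, the shares were 33.1 ± 1.38% upstream and 13.3 ± 1.15% downstream.

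Downstream promoters were nonetheless open more often than the intervening sequence of the same genes. Windows of the same width halfway between neighbouring promoters, 3 kb or more from any TSS, had a peak in 4.65 ± 0.815% of 2086 cases, and 3.26% were open in all 3 libraries. The windows of the first TSS of each promoter in those genes were open in 27.6 ± 1.27%, which is 22.9 ± 0.501 points more (exact p = 0.25, n = 3). For the most downstream promoter alone the share was 16.8 ± 1.19%, or 12.2 ± 0.378 points above the midpoints (exact p = 0.25, n = 3), in the same direction in each of the 3 libraries.

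Set against other genes, multi-promoter genes had a smaller share of open promoters but a slightly larger share of genes with any open promoter. Their promoters were open in 27.7 ± 1.23%, against 45.6 ± 1.14% of the promoters of the other genes, a difference of -17.8 ± 0.187 points (exact p = 0.25, n = 3). At least 1 promoter was open in 50.8 ± 1.46% of multi-promoter genes, against 45.6 ± 1.14% of the other genes. The difference was 5.19 ± 0.369 points (exact p = 0.25, n = 3). A multi-promoter gene could be open at any of 2 or more promoters, whereas each other gene had 1 promoter. The most upstream promoter of multi-promoter genes alone was open in 40.1 ± 1.47%. The part of the number of promoters in the gene-level shares was not tested. Olfactory and vomeronasal receptor genes, which sensory neurons express, made up 241 of the 2026 genes, and 2 of them had a used promoter. Without these, in a comparison chosen after seeing the data, 52.6% of 1785 multi-promoter genes had a used promoter, against 46.5% of 13814 other genes.

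**Figure D1:**
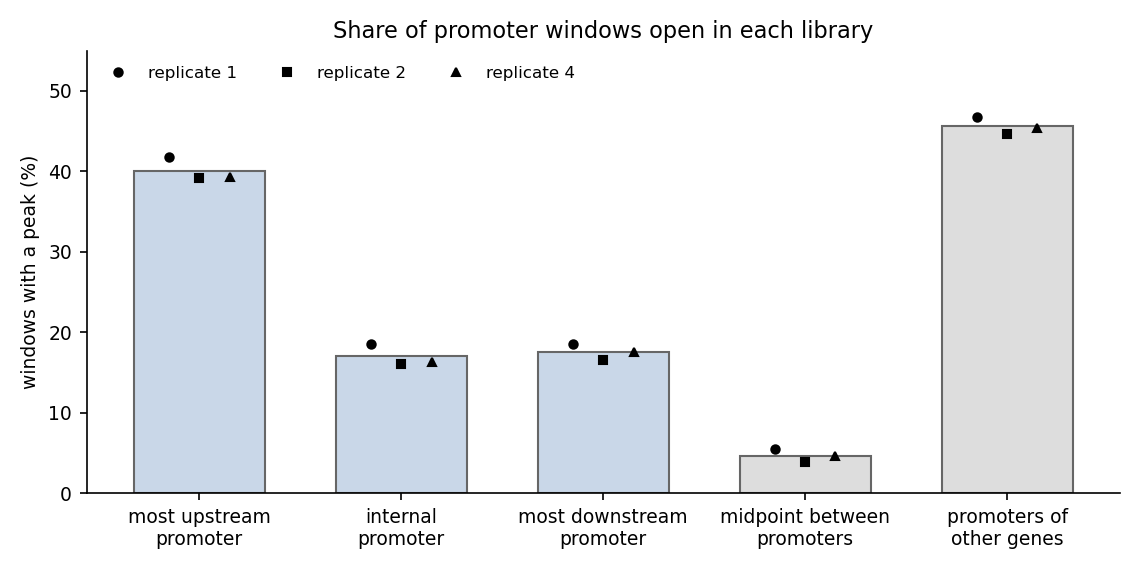
Percentage of windows with a peak in each of 3 libraries (symbols) and their mean (bars), for the most upstream, internal and most downstream promoters of 2026 multi-promoter genes, for midpoint windows between their promoters and for promoters of 15005 other genes. Upstream promoters average 40.1%, downstream promoters 17.6% and midpoints 4.65%.

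Among the 1727 genes with exactly 2 promoters, the upstream promoter alone was used, with the downstream promoter closed, in 479 (27.7%). The downstream promoter alone was used, with the upstream promoter closed, in 127 (7.35%). Both were used in 102 (5.91%), both were closed in 817 (47.3%), and the remaining 202 had a promoter open in some libraries only. The pattern was the same in all 3 libraries for 1525 genes (88.3%), and 9 genes were open only upstream in 1 library and only downstream in another. A downstream promoter was used in 16.4% of the 622 genes with a used upstream promoter and in 13% of the 977 genes with a closed upstream promoter, shares that lie close together. The median distance between the promoters was 17.6 kb where both were used and 20.5 kb where the upstream promoter alone was used. It was 15.8 kb where the downstream promoter alone was used and 11.7 kb where both were closed. Of the 817 genes with both closed, 238 were olfactory or vomeronasal receptor genes, and their part in the shorter distance was not tested. Both were used in 4.25% of genes at 5 to 10 kb, 6.76% at 10 to 20 kb and 7.33% at 20 to 50 kb. The share was 9.09% at 50 to 100 kb and 2.99% in the 167 genes with promoters farther apart. The upstream promoter was used in 25.7, 36.7, 47.6, 45.5 and 34.1% of genes in the same order. Among genes with a used upstream promoter, both were used in 16.6, 18.4 and 15.4% in the bins up to 50 kb. That share was highest at 50 to 100 kb and 8.77% in the genes farther apart, so it did not rise steadily with distance.

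Among genes used only upstream, Fzr1 stood tallest. Fzr1, an activator of the anaphase-promoting complex, had upstream heights of 18.6, 14.7 and 24.3 in replicates 1, 2 and 4 and no peak at its promoter 7.10 kb downstream. Strn, a scaffold of the STRIPAK phosphatase complex, had heights of 15.2, 13.7 and 20.5 upstream and no peak 48.4 kb downstream. Hdac4, a class IIa histone deacetylase, had 13.2, 11.3 and 18.9 at the upstream promoter and none 31.9 kb downstream. The genes named here were chosen as the tallest of this pattern, whose median height was 2.86 ± 0.675 (SD of the library medians, n = 3). Mafk, a small Maf protein that pairs with the factors NRF2 and BACH1, had 12.5, 11.1 and 19.3. Casp8ap2, which acts in the processing of histone RNA, had 13.8, 11.0 and 16.9. Dop1b, 6430548M08Rik and Csnk1g2, a casein kinase 1, had the same pattern with heights of 10.4 to 19.8. Of these 8 genes, Hdac4 and Mafk had a peak that covered a TSS in all 3 libraries, Fzr1 and Dop1b in 1 library, and Strn, Casp8ap2, Csnk1g2 and 6430548M08Rik in none. The peak of Csnk1g2 was centred 738 bp upstream of its TSS in replicate 1. The peak of Strn was centred 446 bp downstream of its TSS, and with a window of 250 bp Strn had no used promoter.

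Among genes used only downstream, Tollip stood tallest. Tollip, an adaptor that dampens Toll-like receptor and interleukin-1 signalling, had heights of 12.2, 11.5 and 19.7 at the promoter 16 kb downstream and no peak upstream. Iffo2, an intermediate filament family gene, had 10.8, 8.68 and 15.6 downstream. Atf3, a stress-induced factor that restrains inflammatory genes, had 9.30, 8.92 and 15.4 at the promoter 34.7 kb downstream and no peak at the upstream promoter. The genes named here were again chosen as the tallest of the pattern, whose median height was 2.27 ± 0.425 (n = 3). Cox19, a factor in the assembly of cytochrome c oxidase, had 9.77, 8.0 and 14.4 downstream. Ssc4d, a member of the scavenger receptor cysteine-rich family, had 8.11, 8.31 and 11.2. Dcun1d4, Zmynd8 and Foxn3 ranged from 5.84 to 11.4. For Tollip, Atf3, Cox19 and Zmynd8 the tallest peak covered an annotated TSS in all 3 libraries, whereas for Iffo2, Ssc4d and Foxn3 it covered none, and for Foxn3 it was centred 922 bp downstream of the nearest TSS. With a window of 250 bp Ssc4d had no used promoter.

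**Figure D2:**
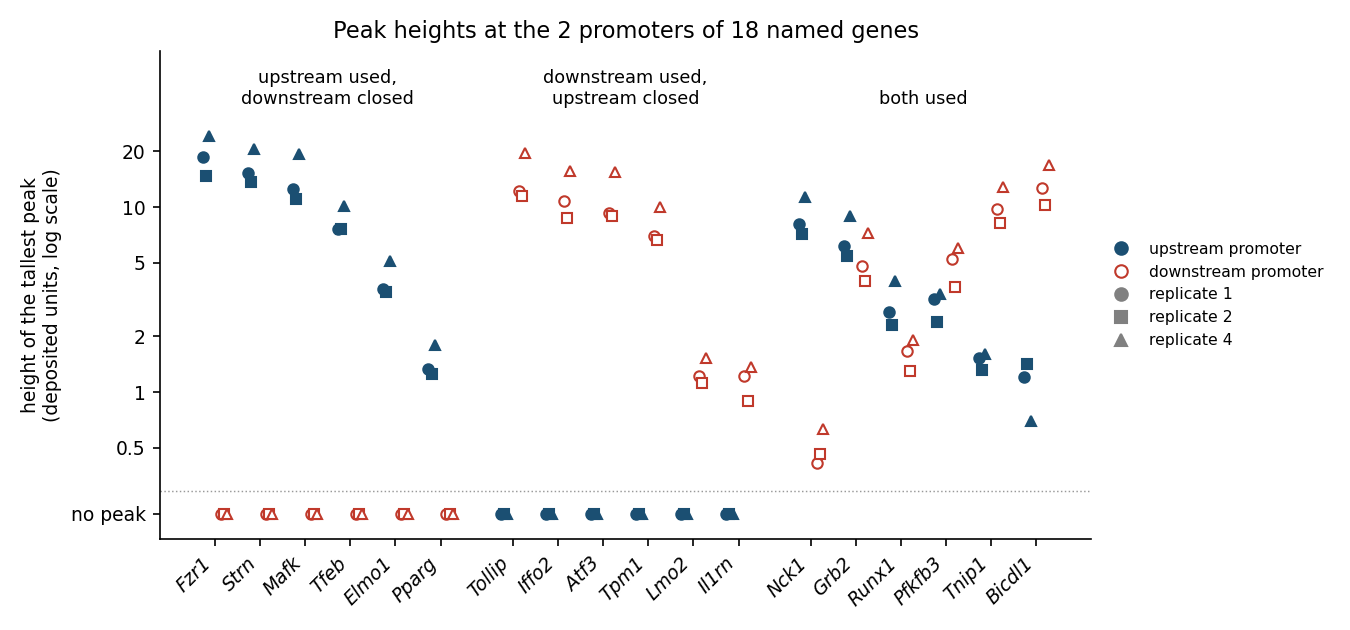
Height of the tallest peak (deposited units, log scale) at the upstream (filled) and downstream (open) promoter of 18 named genes with 2 promoters, with a symbol per library. Points under the dotted line mark promoters with no peak, as at the downstream promoter of Fzr1 and the upstream promoter of Tollip.

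Where 2 promoters were used, they usually differed in height. Of the 140 such genes, 125 (89.3%) had the same promoter taller in all 3 libraries: the upstream promoter in 76 and the downstream promoter in 49. With only peaks that cover a TSS these counts were 20 and 22, so the excess of taller upstream promoters was not kept. The upstream promoter was at least 2-fold taller in every library in 45 genes (32.1%) and the downstream promoter in 25 (17.9%). At least 4-fold differences in every library were found in 26 genes for the upstream promoter and in 12 for the downstream promoter. The median over genes of the mean log2 ratio of upstream over downstream height was 0.42, and the median SD of that log2 ratio over libraries was 0.23. Across the 140 genes the mean heights of the 2 promoters, from the same 3 libraries, had a Spearman correlation of 0.05, so a tall upstream peak told little about the downstream height. In the 102 genes with exactly 2 promoters, both used, the median height was 2.87 ± 0.610 upstream and 1.80 ± 0.235 downstream (n = 3).

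The height ratio favoured the upstream promoter most in Nck1, an adaptor that links receptor tyrosine kinases to actin. Nck1 had 8.10, 7.11 and 11.4 upstream and 0.412, 0.461 and 0.631 at the promoter 39.3 kb downstream, a log2 ratio of 4.14 ± 0.18 (n = 3). Mark2, a microtubule affinity-regulating kinase, had a log2 ratio of 3.88 ± 0.52, Fam118a of 3.78 ± 0.41 and Smarca2, an ATPase of the SWI/SNF remodelling complex, of 3.66 ± 0.46. Add3, an adducin that caps actin, had 20.5, 15.9 and 28.2 at its first promoter and 1.72, 1.40 and 2.40 at its last promoter, 54.5 kb away, with its middle promoter closed and a log2 ratio of 3.54 ± 0.04. The upstream promoter of each of these 5 genes was taller in every library, by more than the libraries differed in log2 ratio. With the shorter, stricter peak list the downstream promoter of Nck1, Mark2 and Fam118a was no longer called, and each gene had 1 used promoter. With the taller 50% of peaks Smarca2 also had 1, and with a window of 250 bp Add3 had 1.

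The ratio favoured the downstream promoter most in Bicdl1, a dynein adaptor, which had 1.20, 1.42 and 0.693 upstream and 12.6, 10.2 and 16.8 at the promoter 78.6 kb downstream. Its log2 ratio of upstream over downstream height was -3.62 ± 0.90 (n = 3). Mapre2, a microtubule end-binding protein, had a log2 ratio of -3.41 ± 0.08, and Plcd1, a phospholipase C, of -3.26 ± 0.40. Lrrfip1 and Lrif1, a nuclear factor that binds HP1, had log2 ratios of -3.07 ± 0.07 and -2.93 ± 0.60. These 5 downstream promoters had heights of 4.93 to 20.4, and the upstream promoters of the same genes 0.676 to 1.79. With the shorter list Plcd1 had 1 used promoter, and with the taller 50% of peaks Bicdl1, Lrrfip1 and Lrif1 had 1 as well.

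**Figure D3:**
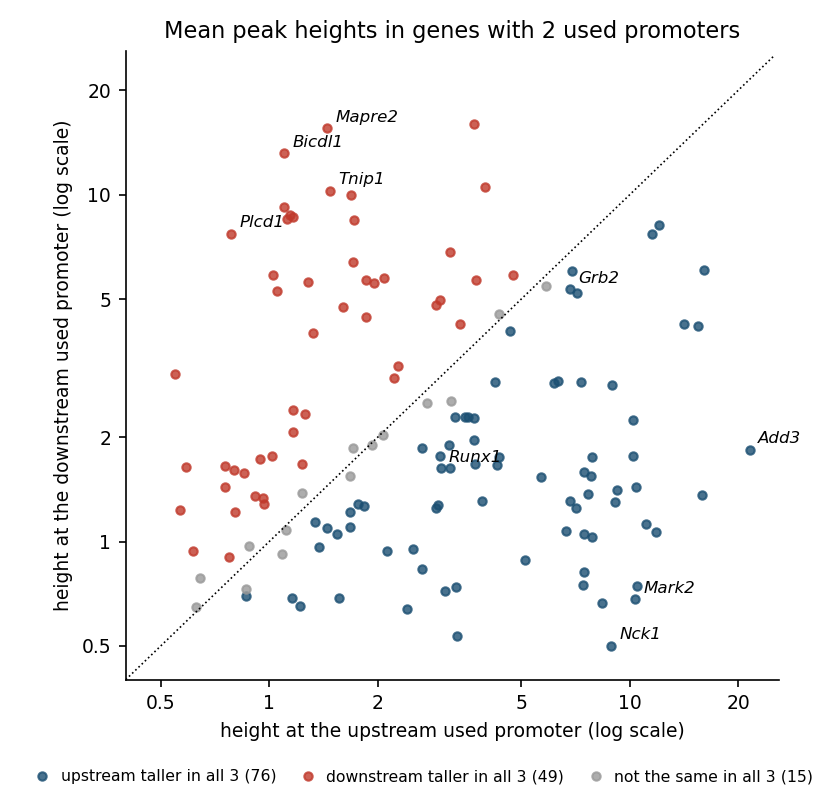
Mean height over 3 libraries at the upstream (x axis) and downstream (y axis) used promoter of 140 genes with 2 used promoters, both axes on a log scale, with equal heights on the dotted line. Blue points (76 genes) are taller upstream in all 3 libraries, red points (49 genes) taller downstream, and grey points (15 genes) not the same in all 3.

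The 7 genes with 3 used promoters included Plec, Foxp1, Hlcs, Specc1 and Tbc1d14. Plec, which encodes the cytoskeletal linker plectin and is known for its many first exons, had heights of 1.09, 1.00 and 0.953 at its first promoter, 1.78, 1.85 and 2.36 at promoter 2 and 3.69, 2.99 and 4.96 at promoter 3. The last of these stood highest in each library. Foxp1, a forkhead factor known in monocyte differentiation, used promoters 1, 2 and 5 of its 5 promoters, with the tallest peak at promoter 2 (2.57, 2.54 and 4.43), and the peak at promoter 1 was centred 1080 bp upstream of the TSS in replicate 1. Hlcs, holocarboxylase synthetase, had 8.76, 7.80 and 12.8 at its first promoter and 0.647 to 2.76 at its other promoters. Specc1 used 3 of its 5 promoters and Tbc1d14, a regulator of autophagy, all 3. Tbc1d14 had 12.6, 9.29 and 17.3 at its first promoter, which is poor in CpG, against 0.718 to 2.27 at its other promoters. No tallest peak of Plec covered an annotated TSS, and the centres lay 381 to 742 bp from the nearest TSS in replicate 1. With the shorter, stricter peak list each of these 5 genes had 2 used promoters, and with a window of 250 bp Plec had 1 used promoter, and Foxp1 and Tbc1d14 had 2.

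The signal did not always sit on the annotated start. The tallest peak covered a TSS in 67.9 ± 1.26% of upstream promoters used alone, 61.2 ± 1.98% of downstream promoters used alone and 73.6 ± 0.778% of used promoters of other genes (n = 3). Used midpoint windows had a peak over their centre in 9.80 ± 1.70%. When only peaks that cover a TSS were counted, an alternative chosen after seeing the data, 48 genes used 2 or more promoters, against 147 by the 1 kb window. Used promoters also held more deposited footprints, short protected stretches inside open chromatin, than used midpoint windows, with means of 5.16 ± 0.539 and 2.47 ± 0.333 per promoter and per midpoint window (n = 3). A promoter with several TSSs spans more sequence than a midpoint window. Their peaks were taller as well, with median heights of 2.37 ± 0.458 and 1.10 ± 0.179. Used promoters of other genes had a median height of 3.64 ± 0.745.

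Within a gene, the used promoter usually had the higher CpG content. CpG content was measured as the observed over the expected number of CG dinucleotides in the 500 bp on either side of the first TSS. In the 606 genes with exactly 1 of 2 promoters used and the other closed, the median was 0.74 at the used promoter and 0.23 at the closed promoter, and the used promoter had the higher value in 563 genes (92.9%). This was so in 95.8% of the 479 genes used upstream (medians 0.76 and 0.22) and in 81.9% of the 127 genes used downstream (medians 0.63 and 0.25). Where both were used the medians were 0.70 upstream and 0.41 downstream, and where both were closed they were 0.21 and 0.20. The median was 0.29 over all 4468 promoters of multi-promoter genes and 0.40 over all 19525 scored autosomal protein-coding promoters. With 0.6 as a threshold, 409 genes had a used promoter above it and a closed promoter at or below it, 171 had both at or below, 15 had both above and 11 had the reverse. The 11 exceptions were used downstream in 10 cases. These values describe sequence and were compared over genes, with no test.

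**Figure D4:**
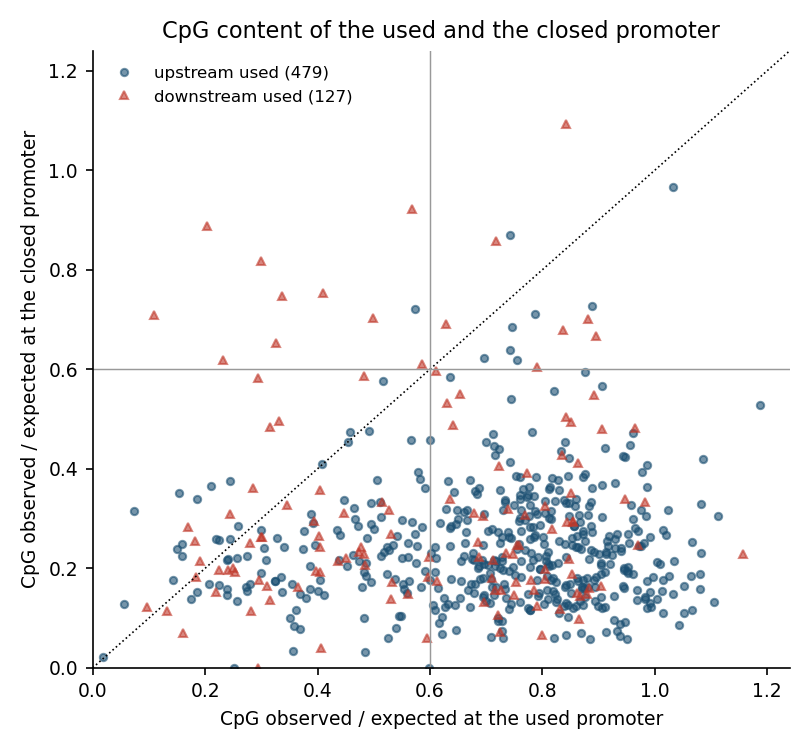
Observed over expected CpG at the used promoter (x axis) and at the closed promoter of the same gene (y axis) for 606 genes with exactly 1 of 2 promoters used, with equal values on the dotted line and 0.6 marked by grey lines. Used promoters reach a median of 0.74 and closed promoters 0.23, and most genes lie under the dotted line whether used upstream (circles) or downstream (triangles).

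Short motifs were compared at the same promoters. Each was searched on both strands from 250 bp upstream to 50 bp downstream of the first TSS. A GC box, the letters GGGCGG bound by SP and KLF factors, was found in 63.2% of used and 12.5% of closed promoters of these 606 genes. It was found in 37.7% of all 19525 scored autosomal protein-coding promoters, called all below. The letters CCGGAA, an ETS motif with a CpG, were found in 21.1% of used and 5.45% of closed promoters, against 13.5% of all. The TATA box letters TATAAA were in 6.47% of used and 21.7% of closed promoters of genes used upstream, but in 8.66% of used and 6.30% of closed promoters of genes used downstream, against 14.6% of all. The letters GAGGAA, the core bound by the myeloid factor PU.1, were in 24.4% of used, 27.9% of closed and 27.9% of all promoters. This short core thus did not separate used from closed promoters. In genes with both used it was in 30.4% of upstream and 36.3% of downstream promoters. The RUNX letters TGTGGT were in 10.1% of used and 20.3% of closed promoters, against 16.5% of all. The C/EBP letters TTGCNNAA were in 8.58% of used and 11.7% of closed promoters, against 11.4% of all. They were in 18.6% of downstream promoters of genes with both used. The AP-1 letters TGANTCA were in 3.47% of used and 10.9% of closed promoters, and in 14.7% of downstream promoters of genes with both used, against 7.61% of all. The GC box and CCGGAA occur in the searched window of the used promoters of Mafk and Tollip and in neither of their closed promoters. That window is longer than the 150 bases shown above, and the CCGGAA of Mafk is not within the bases shown. Nadk holds GAGGAA at both promoters and neither of the CpG-containing motifs at either. The GC box and the ETS motif contain a CG, so they are not independent of the CpG content.

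The annotated principal isoform more often started at the used promoter, mainly in genes used upstream. APPRIS marks the principal protein isoform of a gene, and in 395 of the 606 genes the transcripts with that mark all started at 1 of the 2 promoters. That promoter was the used promoter in 330 of them (83.5%). The share was 89.1% in genes used upstream and 58.9% of the 73 such genes used downstream. In genes with both promoters closed, 83.6% of upstream and 65.1% of downstream promoters had a transcript with that mark. Since 479 of the 606 genes were used upstream, the pooled share also depends on position, and the part of position was not tested. The used promoter had more annotated transcripts than the closed promoter in 281 genes (46.4%), as many in 260 and fewer in 65. A promoter with several TSSs was scored over more sequence, and the part of this in the counts was not tested. The 2 promoters shared no annotated start codon in 41.5% of all 1727 genes, in 55.9% of genes with both used, in 55.9% of genes used only downstream, in 46.6% of genes used only upstream and in 32.8% of genes with both closed.

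Genes known for alternative promoters showed every pattern. The list held 15 multi-promoter genes, and 8 had a used promoter (53.3%, against 46.4% of all multi-promoter genes). Runx1, a master regulator of blood formation with a distal and a proximal promoter, used both. Its distal promoter had heights of 2.70, 2.30 and 3.96, and its proximal promoter, 129 kb downstream, 1.66, 1.30 and 1.92, with the distal promoter taller in each library. Rassf5, an effector of RAP1 in leukocyte adhesion, had 1.90, 1.47 and 2.50 at its first promoter, no peak at promoter 2 and 5.54, 4.34 and 6.84 at promoter 3. Tfeb, a regulator of lysosome genes, had 7.58, 7.57 and 10.1 upstream and a closed promoter 48.7 kb downstream. Mitf, of the same family, had 3.64, 3.33 and 4.60 at the first of 4 promoters, and the others had no peak apart from 0.372 in replicate 2 at promoter 2.

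In 4 further textbook genes 1 promoter was used. Pparg, the nuclear receptor of lipid handling whose downstream promoter makes the adipocyte form γ2, had 1.34, 1.25 and 1.79 upstream and no peak 61.1 kb downstream. Gnas, an imprinted locus in which transcripts for NESP55 and XLαs start upstream of those for the G protein subunit Gsα, was open only at promoter 3, with 2.27, 2.00 and 2.78. Il1rn, the interleukin-1 receptor antagonist, whose secreted form starts downstream of the intracellular form, had no peak upstream and 1.22, 0.896 and 1.37 at the promoter 8.44 kb downstream, a call that is lost with the taller 50% of peaks. Ciita, the coactivator of MHC class II genes, was open at its upstream promoter, with heights of 0.767, 0.736 and 0.681, a call that is lost with the shorter, stricter peak list. Its downstream promoter had a peak of 0.606 in replicate 4 only.

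The other textbook genes had no used promoter. Cdkn2a, whose upstream promoter makes ARF and whose downstream promoter makes p16INK4a, had upstream peaks of 0.452 and 0.384 in replicates 2 and 4 and none downstream. Esr1, an oestrogen receptor, had upstream peaks of 0.717 and 0.656 in replicates 1 and 4. Bdnf, Ank1, Kcnip3, Trp63 and Trp73 were closed at all of their promoters in all libraries. The closed promoters included CpG-rich ones. Observed over expected CpG was 0.99 at the first promoter of Ank1 and 0.76 at the first promoter of Trp73. A high CpG content was thus not always accompanied by a peak.

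**Figure D5:**
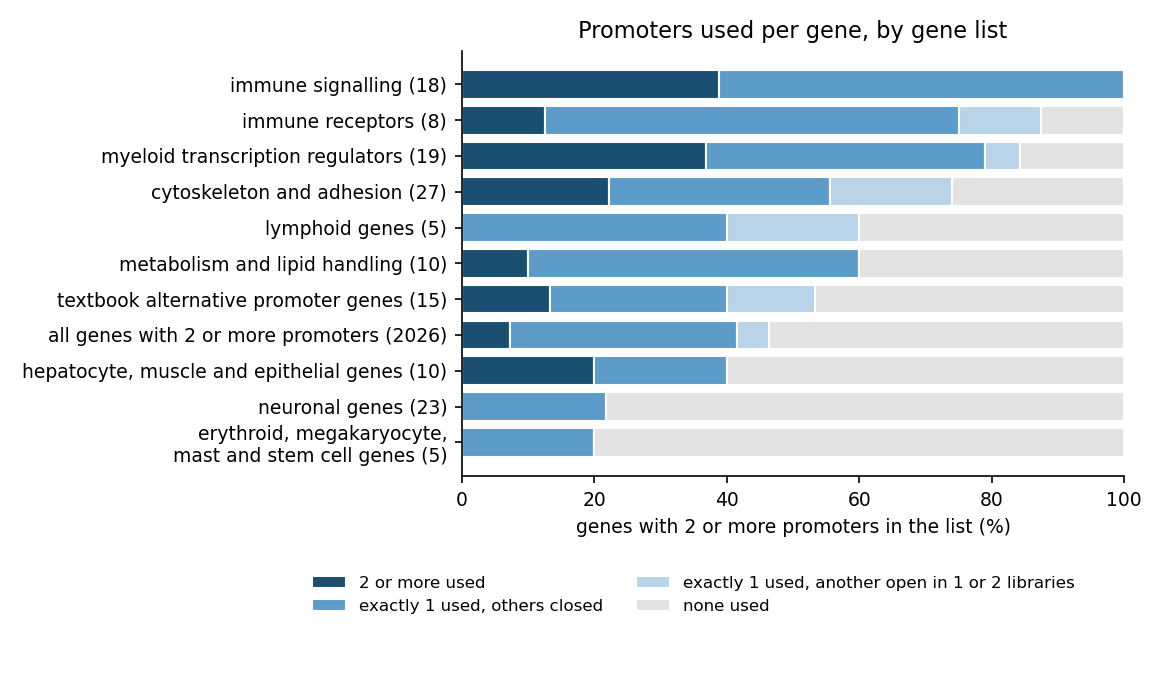
Percentage of multi-promoter genes in each gene list (number in brackets) that used 2 or more promoters, exactly 1 with the others closed, exactly 1 with another open in some libraries, or none. Immune signalling genes all had a used promoter, whereas 21.7% of neuronal genes did, and the share over all 2026 genes was 46.4%. The lists were chosen with earlier results of these data known.

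Immune signalling and myeloid regulator genes were open in larger shares than the 46.4% of all multi-promoter genes. Without olfactory and vomeronasal receptor genes that share was 52.6%. The gene lists were chosen with earlier results of these data known, so their shares are a description only. All 18 immune signalling genes had a used promoter, 11 with the others closed and 7 with 2 or more used. Grb2, an adaptor in receptor signalling, had 6.13, 5.44 and 8.97 upstream and 4.80, 3.99 and 7.24 at the promoter 9.06 kb downstream. Tnip1, an inhibitor of NF-κB signalling, had 1.53, 1.31 and 1.60 upstream and 9.77, 8.22 and 12.8 at the promoter 6.80 kb downstream. Within each library Grb2 was taller upstream, with a log2 ratio of 0.37 ± 0.07, and Tnip1 taller downstream, with -2.78 ± 0.20 (n = 3 each). Cblb, a ubiquitin ligase, Elmo1, which acts in engulfment, Pik3r1, a regulatory subunit of PI3-kinase, and Arhgef2 were each used upstream alone, with heights of 3.47 to 8.42.

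Among 19 myeloid transcription regulators, 16 had a used promoter (84.2%), 8 with the others closed and 7 with 2 or more used. Hivep3, a zinc finger factor, had 15.3, 13.1 and 22.8 at the first of its 3 promoters and no peak at the others. Nfkb1 and Tcf7l2 were used upstream alone at lower heights of 2.06 to 4.01. Rara, a retinoic acid receptor known in myeloid differentiation, used promoter 2 (2.73, 2.37 and 3.60) and promoter 3 (4.32, 3.67 and 6.46), and promoter 1 was closed. With a window of 500 bp Rara had 1 used promoter. Tcf4, the E protein E2-2, had 2.89, 2.32 and 4.37 at its first promoter and 2.61, 2.32 and 2.69 at promoter 5, with a log2 ratio of 0.28 ± 0.37, so neither stood taller in all libraries.

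Of 8 immune receptor genes 7 had a used promoter (87.5%, against 46.4% of all multi-promoter genes). The list is small and no test was made. Cd33, a sialic acid-binding receptor of myeloid cells, used both promoters, with 2.19, 2.13 and 3.63 upstream and 1.70, 1.69 and 2.19 at the promoter 11.3 kb downstream. Both promoters of Cd33 are poor in CpG, with 0.16 upstream and 0.21 downstream. Tgfbr1, a receptor of transforming growth factor beta, had 9.19, 7.47 and 12.1 upstream and no peak downstream. Itgal, the LFA-1 alpha chain, Ptpre, a phosphatase, and Plxnb2, a plexin, were also used upstream alone.

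Of 27 cytoskeletal and adhesion genes 20 had a used promoter (74.1%), against 46.4% of all multi-promoter genes. Of 10 metabolic genes 6 had, too few genes to set apart from that share. Nadk, which makes NADP from NAD, had 9.13, 6.85 and 13.2 upstream although its CpG value there was 0.22. Acsl1, which activates fatty acids, had 12.3, 9.65 and 17.9 upstream. Pfkfb3, a regulator of glycolysis, used both promoters and was taller downstream, with 3.19, 2.38 and 3.39 upstream and 5.21, 3.70 and 5.97 downstream. Lpin2, a phosphatidate phosphatase, was used at the first promoter, whereas its relative Lpin1 was used only at the last of 3. Tpm1, a tropomyosin whose upstream promoter makes the long forms and whose downstream promoter makes the short forms, had no peak upstream and 6.99, 6.66 and 10.04 at the promoter 5.44 kb downstream. Both of its promoters had a CpG value above 0.6 (0.79 at the used and 0.61 at the closed promoter). Diaph1, Map4 and Epb41l2 were used at the first promoter alone, and Myo18a at 2 promoters.

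Among lists of other cell types the neuronal list stood low. Of 23 neuronal genes 5 had a used promoter (21.7%, against 46.4% of all multi-promoter genes), and none used 2. Their used promoters had a median height of 1.05, against 2.33 over all used promoters, each promoter taken at its mean over libraries. Nrg1, a growth factor of the nervous system, had 1.30, 1.17 and 1.73 at the promoter 966 kb downstream and no peak at the first. Ank2, a neuronal ankyrin, had 0.734 to 0.887 at promoter 2 of 5, and Dlg4 and Nrxn2, of the synapse, 0.798 to 1.57. Nrxn2 had no used promoter with the shorter list or with narrower windows, and Ank2 had none with the taller 50% of peaks. The erythroid, megakaryocyte, mast cell and stem cell list had 1 of 5, Lmo2, used only at the promoter 12.1 kb downstream (1.22, 1.12 and 1.52). Among 10 hepatocyte, muscle and epithelial genes 4 had a used promoter (40.0%), among them Grhl1, Cldn10 and Pde4d. Pde4d, a phosphodiesterase with 7 promoters over 1270 kb, used promoters 4 and 6 at heights of 0.594 to 0.990, and neither was used with the taller 50% of peaks. Of 5 lymphoid genes 3 had a used promoter (60.0%), including Bach2 (2.98, 2.57 and 3.26, upstream) and Rora (1.86, 2.01 and 2.71, downstream only). The neutrophil and dendritic cell list had a single multi-promoter gene, Zbtb46, used upstream (0.891, 1.02 and 1.91). That call is lost with the shorter list. Lists of 10 or fewer genes are small, and no share here was tested against the 46.4%.

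Some genes had different promoters open in different libraries. Slc12a5, a chloride transporter, had upstream peaks of 0.869 and 0.606 in replicates 2 and 4 and a downstream peak of 0.726 in replicate 1, where the upstream window held an FDR interval under 0.05 but no peak. Lhfpl2 had an upstream peak of 0.528 in replicate 1 and downstream peaks of 0.621 and 0.507 in replicates 2 and 4. In replicate 4 its upstream window held an FDR interval under 0.05 but no peak. Each of these heights was below the median peak height of its library (0.932, 0.975 and 1.14 in replicates 1, 2 and 4). The upstream promoter of Psd had a peak of 5.83 in replicate 1 and none in the others, centred 1180 bp upstream of the nearest TSS, so at the edge of the window. That window held a deposited footprint and an interval with an FDR under 0.05 in all 3 libraries, although a peak overlapped it in replicate 1 only. Its downstream promoter had a peak of 0.372 in replicate 2 only.

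The distance of 5 kb that defines the genes fell within a continuum. The last genes inside it were Olfr556, Olfr1386 and Vmn1r224, whose outer TSSs lay 5.002, 5.008 and 5.017 kb apart and whose 2 promoters were not used. The first outside it were Pef1, Olfr678 and Tex45 at 4.998, 4.994 and 4.987 kb, of which Pef1 had its promoter used.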

How the data were processed

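Each library had 2 deposited peak lists, which the authors derived from that library alone on mm10, per the labels. Which aligner, peak caller and footprint method they used is not given in the sources used here. The height of a peak is the signal the authors deposited. Footprints and intervals with a false discovery rate (FDR) under 0.05, values of the p-value kind, are also deposited; footprints were counted by position and intervals by presence. The longer peak list was used. TSSs came from GENCODE M21 basic (release 21), and sequence from GRCm38.p6. TSSs less than 5000 bp apart were joined by single linkage, and a TSS within 1000 bp of another gene's TSS was left out. A peak had to overlap a window by 1 bp. Shares were compared over the 3 libraries with exact paired permutation tests (smallest two-sided p 0.25). Python 3.11.15, numpy 2.4.6, pandas 2.3.3, scipy 1.17.1 and matplotlib 3.10.9 were used, and the scoring was tested on simulated peaks. Named genes were the multi-promoter genes of the textbook list, the tallest of each other list and of each pattern, those with the most used promoters, those with the largest height ratios and those that differed between libraries. The members and gene lists were chosen with earlier results of these data known. Alternatives covered the peak list, window, overlap, TSS rules and libraries. How the authors placed reads shared by near-identical genes, such as the receptor families, is not stated in the labels. The values of some genes are not reported here.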

Additional observations from a re-analysis of the deposited data

Results flagged for a closer look

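A small share of the promoters without a peak overlapped a deposited cleavage interval, in data that the comparisons above do not use. Of the 2389 promoters with a single TSS and no peak in any library, 0.670 ± 0.111% overlapped a deposited interval with an FDR under 0.05 (SD, n = 3), against 0.204 ± 0.204% of the 1957 midpoint windows without a peak, which have the same width. The share was 0.795, 0.586 and 0.628% at these promoters in replicates 1, 2 and 4, and 0.409, 0 and 0.204% at the midpoints. In all 3 libraries together the interval was present at 1 of the promoters (0.0419%). Which promoters had such an interval thus differed between libraries.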

How the results depend on the processing

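The 14 results were recomputed under 17 alternatives, 199 comparisons in all. Differences in percentage points were checked by sign only, and none changed its sign. In all, 186 values stayed within their limits (1.5-fold for counts), and 13 counts moved further. Each count was judged alone, so a change in which of 2 counts was larger was not scored. With the shorter, stricter peak list, 30 genes were taller downstream in all libraries. With the taller 50% of peaks, 85 genes used 2 or more promoters, 50 were taller upstream and 26 downstream, and 28 and 15 were so by 2-fold. With TSSs 10 kb apart, 687 genes had no used promoter, since fewer genes qualify. With peaks that cover a TSS, 48 genes used 2 or more promoters, 20 were taller upstream and 22 downstream, 13 and 14 were so by 2-fold, and 50 of the 89 named genes kept their number of used promoters. Upstream promoters then no longer outnumbered downstream ones among the taller, and the cause was not tested. Under the other alternatives 69 or more named genes kept that number. Leaving out each library in turn gave 799 to 809 genes with exactly 1 used promoter and 151 to 171 with 2 or more. The exact tests pair sets of windows within each library; no fit with the replicate as a block between groups was made, since the libraries form 1 group. Read depth is unknown, so a closed promoter may be below detection.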
